A study of Mus musculus with 26 samples.

Results

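The comparison described here sets wild-type (WT) S49 cells held for 24 h in 8-CPT-cAMP against untreated WT S49 cells. S49 cells come from a mouse T cell lymphoma, and 8-CPT-cAMP is a membrane-permeable analogue of cyclic AMP (cAMP) that activates protein kinase A (PKA). The 7 arrays of the comparison were the 3 whose source labels name WT cells after 24 h of the analogue and the 4 labelled as untreated WT cells, out of 26 arrays in the series. The other 19 arrays held WT cells after 2 and 6 h and the deathless variant (D-), which survives raised cAMP, untreated and after 2, 6 and 24 h. The labels give the dose as 100 mM for every treated group, a unit that may be an error, and 0 h or no treatment for the untreated groups. Titles of the treated WT samples carry the word untreated with a time, whereas the source and description of those samples call them treated, and the growth text speaks of D- cells on every sample. Each group is 1 permanent cell line with no transgene named, and the labels call the replicates biological without describing separate cultures, so p-values reflect only how far these samples differ among themselves, and that spread may be technical. All 7435 genes with a log2 intensity of 5 or more on at least 3 of the 26 arrays were described.

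Raised cAMP frees the catalytic subunits of PKA, which phosphorylate CREB and related factors bound to cAMP response elements in promoters. S49 is a classic system for this pathway, because WT cells first stop dividing in G1 and later die, and mutants that lack PKA activity do neither. The genes below are ordered by role, from the DNA replication machinery through growth to quiescence, death and immune receptor genes.

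The values are the authors' GCRMA intensities on a log2 scale. limma tested 12724 probe sets, and the brightest probe set stood for each gene. A gene is said to have risen or fallen where its Benjamini-Hochberg adjusted p over all probe sets was under 0.05. Log2 changes are WT 24 h minus untreated WT with the standard error of the fit, and levels are log2 intensities on single arrays. Where a group mean lay under log2 5, the change is a bound between the brighter mean and 5, given as at least that size. Where both means lay under 5, no change is given. List medians use the fitted differences unless bounds are named.

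Arrays correlated at r between 0.972 and 0.991 within WT 24 h, between 0.982 and 0.995 within untreated WT and between 0.883 and 0.940 across the 2 groups. As a measure of RNA integrity, Gapdh probes at the 3' end exceeded those at the 5' end by 0.10 ± 0.20 (SD, n = 3) in WT 24 h and -0.05 ± 0.15 (SD, n = 4) in untreated WT. In order of replicate the values were -0.11, 0.13 and 0.27 in WT 24 h and -0.19, -0.15, 0.01 and 0.13 in untreated WT. The arrays of the series also fell into 2 clusters of deviations from group means, whose source the labels do not name. The split followed the replicate number in every group. Cluster 1 held replicate 1 of each treated group and replicates 1 and 2 of each untreated group. In the comparison, WT 24 h replicate 1 and untreated WT replicates 1 and 2 were in cluster 1 and the other 4 arrays in cluster 2. In both groups the Gapdh values were lower in cluster 1 than in cluster 2, and any link to the size of the changes was not tested. WT 24 h replicate 1 lay closer to the untreated arrays than its 2 partners. Over the genes that rose, its median deviation from the untreated mean was 0.68, against 0.95 and 0.94 on replicates 2 and 3. Over the genes that fell, the 3 values were -0.65, -0.97 and -0.83. Within cluster 1, with 1 treated array, the licensing and fork lists described below had median changes of -1.09 and -1.05, and within cluster 2 of -2.14 and -1.86. Of 259 genes that rose or fell in the pool of 509 from which the named genes were taken, 41 no longer passed within cluster 1, where the fit had 2 residual degrees of freedom, and 7 within cluster 2. As a check of the label, 8 of 9 T cell markers on the array had a WT 24 h mean of log2 5 or more, and the same 8 did in untreated WT, the exception being Cd5. Of B cell markers 4 of 9 reached that level in both groups, of myeloid markers 3 of 10 in WT 24 h and 2 of 10 in untreated WT, of erythroid markers 1 of 7 in both, and of stromal markers 1 of 9 in WT 24 h and 0 of 9 in untreated WT. The summed level of the B cell list lay between 8.42 and 8.79 on WT 24 h arrays and between 8.56 and 10.23 on untreated arrays, and that of the myeloid list between 7.73 and 8.54 and between 7.48 and 7.65.

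At 24 h 53.8% of the genes and 52.6% of all probe sets had changed. Of the 7435 genes, 1960 rose (26.4%) and 2042 fell (27.5%), with a median change of 0.00 and quartiles at -0.43 and 0.43. The counts of every list below are to be read against these shares. The arrays of the 2 groups did not overlap for 3941 genes, or 53.0%. Genes that rose did so over a wider range than genes that fell. A change of 4-fold or more was reached by 189 genes that rose and 93 that fell, one of 16-fold or more by 24 and 3, and one of 32-fold or more by 8 and 0. Of the 2478 genes with the highest mean level 972 fell and 641 rose, while of the 2479 with the lowest 332 fell and 569 rose. Median intensities over all probe sets lay between 44.5 and 45.4 on WT 24 h arrays and between 42.6 and 43.7 on untreated arrays. GCRMA normalises between arrays, so a shift common to most genes may not show in full. Bounds apply to 112 of the genes that rose and 38 of those that fell, and 43 genes passed the level filter only through the WT 24 h arrays, so that a higher value there was fixed by the filter.

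The gene with the largest rise was Sgip1, which encodes an endocytic protein known from brain. Sgip1 stood at 12.56, 12.78 and 12.76 on the WT 24 h arrays and at 4.31, 3.21, 3.91 and 3.22 on the untreated arrays, a rise of at least 7.70 (limma adjusted p = 2.76e-15). Untreated cells thus lay under the level taken as measurable, and every treated array lay far above it. Ctla2a, a cathepsin inhibitor first cloned from activated T cells, stood at 11.41, 11.59 and 11.48 after 24 h and at 5.37, 4.97, 5.86 and 5.20 without treatment (6.14 ± 0.36, adjusted p = 2.02e-11). Its close relative Ctla2b stood at 9.50, 10.20 and 9.67 after 24 h and at 3.21, 2.99, 3.17 and 2.96 without, a rise of at least 4.79. Probes of such near-identical genes can cross-hybridise, so the pair may share signal, which was not tested. The immune checkpoint receptor gene Ctla4 stood at 11.00, 11.80 and 11.22 after 24 h and at 6.76, 5.72, 6.33 and 7.35 without treatment (4.80 ± 0.39, adjusted p = 2.21e-09). Tnfrsf18, which encodes the costimulatory receptor GITR, showed 5.36 ± 0.42, and the Tec family kinase gene Txk at least 5.09. The genes with the largest changes were taken from those whose groups do not overlap, so their separation was fixed by that choice.

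Several of the largest rises were in genes best known from other tissues. Olig3, a transcription factor of neural progenitors, stood at 10.95, 12.22 and 12.17 after 24 h and at 5.92, 5.29, 6.10 and 6.29 without treatment (5.88 ± 0.31). The secreted Wnt inhibitor gene Wif1 stood at 11.79, 10.69 and 11.60 after 24 h and at 6.84, 6.76, 5.69 and 5.67 without (5.12 ± 0.28). The MAGE family gene Maged1 stood at 13.09, 14.15 and 13.95, against 8.45, 8.37, 8.93 and 9.23 in untreated cells (4.99 ± 0.28). The gap between the groups, which the choice of genes required, was over 3 log2 units in Wif1 and Maged1 and over 4 in Olig3. Tceal1 rose by 5.47 ± 0.25, the tetraspanin gene Cd53 by 5.04 ± 0.78, the alkaline ceramidase gene Acer2 by at least 4.67 and the transketolase-like gene Tktl1 by 4.60 ± 0.48. Amot, which encodes the scaffold angiomotin, rose by at least 4.81 by its brightest probe set, but by only 1.89 as the mean of all its probe sets.

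**Figure D1:**
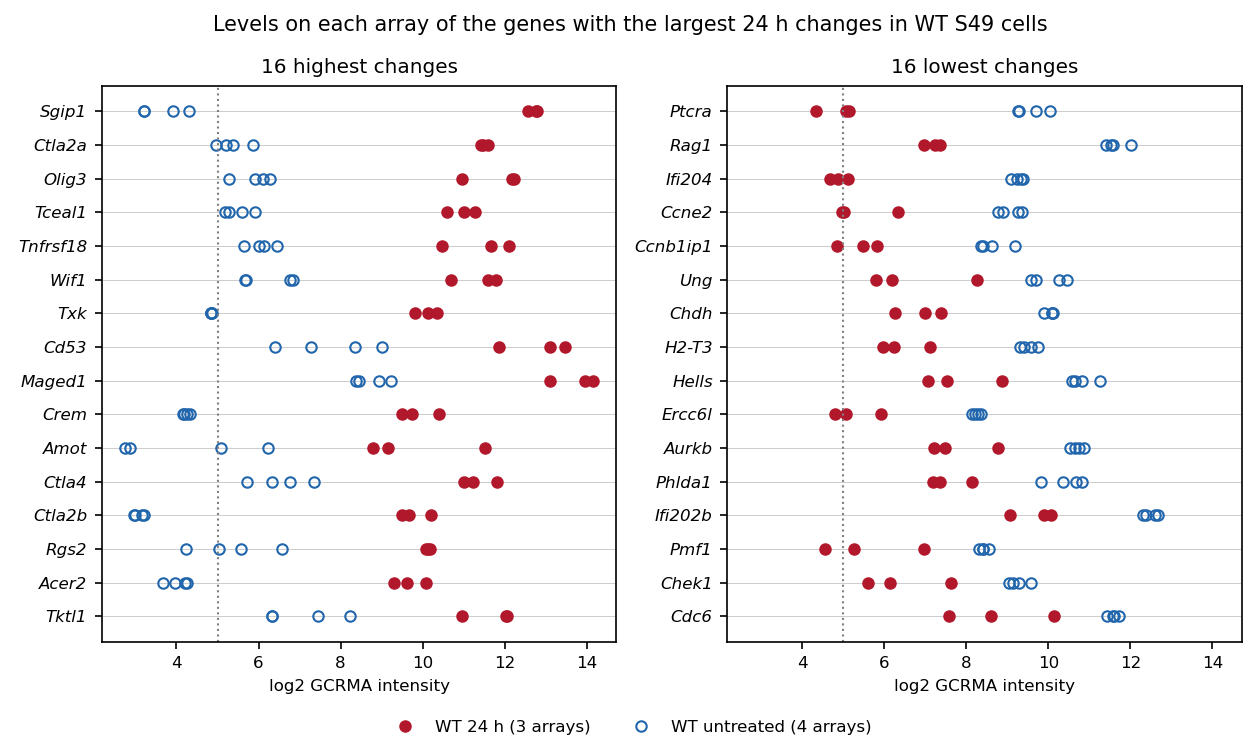
Log2 GCRMA intensity on each array for the 16 genes with the highest and the 16 with the lowest 24 h changes, with WT 24 h arrays filled and untreated WT arrays open and the dotted line at log2 5. The genes were chosen among those whose groups do not overlap, and WT 24 h replicate 1 is the treated array nearest to the untreated ones in Ccne2, Ung, Hells, Aurkb, Chek1 and Cdc6.

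The largest fall was that of Ptcra, the pre-T cell receptor alpha chain. It stood at 5.07, 5.14 and 4.35 on the WT 24 h arrays and at 9.70, 10.03, 9.29 and 9.26 on the untreated arrays, a change of -4.57 or lower (limma adjusted p = 3.9e-08). Rag1, a subunit of the V(D)J recombinase, stood at 7.25, 7.36 and 6.98 after 24 h and at 11.40, 11.57, 12.01 and 11.53 without treatment (-4.43 ± 0.27, adjusted p = 3.08e-11). Both genes were lower on every treated array than on any untreated one. The p200 family genes Ifi204, a DNA sensor, and Ifi202b showed -4.26 or lower and -2.81 ± 0.34. The choline dehydrogenase gene Chdh showed -3.17 ± 0.25, the uracil glycosylase gene Ung -3.25 ± 0.48 and Phlda1 -2.85 ± 0.23. H2-T3, a non-classical MHC class I gene, showed -3.06 ± 0.34. Ccne2, Hells, Aurkb, Chek1 and Cdc6 were also among the 16 lowest and are described with their groups.

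Genes that license replication origins in G1 fell almost as a whole. Of 16 tested, 15 fell and none rose, with a median change of -1.79, against 27.5% of all genes that fell and a median of 0.00 over all genes. The array medians of the list were -1.14, -2.34 and -1.94 on WT 24 h replicates 1, 2 and 3, against 0.00 ± 0.07 (SD, n = 4) on untreated arrays. Cdc6, which loads the MCM helicase, stood at 10.15, 7.57 and 8.61 after 24 h and at 11.72, 11.57, 11.59 and 11.44 without treatment (-2.80 ± 0.35, limma adjusted p = 9.01e-07, and -1.49 within cluster 1). The treated arrays differed widely among themselves for Cdc6 and still lay below all untreated ones. The helicase subunit gene Mcm5 stood at 10.95, 8.92 and 9.79 after 24 h and at 12.01, 12.22, 12.24 and 12.10 without (-2.26 ± 0.26). Mcm10 showed -2.49 ± 0.22, the licensing factor Cdt1 -2.19 ± 0.19 and the origin recognition subunit Orc6 -2.17 ± 0.27. Only Orc4, another origin recognition subunit, did not pass, at -0.34 (adjusted p = 0.0719). It did pass within cluster 2 (-0.50) and without untreated WT replicate 2 (-0.41).

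Of 31 genes of the replication fork, 30 fell and none rose, with a median of -1.78. Gins1, a subunit of the replicative helicase, stood at 8.23, 6.63 and 7.08 after 24 h and at 10.30, 10.32, 9.87 and 9.83 without treatment (-2.77 ± 0.31). Its partner Cdc45 showed -2.62 ± 0.22, the DNA polymerase subunits Pold2 and Pole2 -2.39 ± 0.29 and -2.21 ± 0.23 and the clamp loader subunit Rfc3 -2.31 ± 0.42. Dbf4, the activating subunit of the kinase that fires origins, did not pass, at 0.27 (adjusted p = 0.126). It passed as higher with quantile normalization added (0.38) and without untreated WT replicate 4 (0.37). Of 12 genes that supply deoxynucleotides 10 fell, among them thymidine kinase 1 (Tk1, -2.66 ± 0.31) and the ribonucleotide reductase subunits Rrm2 and Rrm1 (-1.83 ± 0.14 and -1.67 ± 0.17). The one that rose was Samhd1, which encodes an enzyme that destroys deoxynucleotides and stood at 6.27, 8.49 and 7.64 after 24 h and at 4.57, 4.83, 3.94 and 4.47 without, a rise of at least 2.46. Of 21 genes of homologous recombination and the Fanconi pathway 20 fell (median -1.20, or -1.06 with bounds). Exo1 showed -2.57 ± 0.21, Rad51ap1 -2.37 ± 0.21, Brca1 -1.88 ± 0.21 and the checkpoint kinase gene Chek1 -2.80 ± 0.30. Of 32 chromatin assembly and silencing genes 25 fell and 2 rose (median -0.87). Uhrf1, which guides maintenance methylation to new DNA, showed -2.14 ± 0.20, the histone chaperone Asf1b -2.05 ± 0.17 and the lamins Lmnb2 and Lmnb1 -2.42 ± 0.23 and -1.70 ± 0.18. The 2 that rose were Ezh1, the methyltransferase of resting cells (0.95 ± 0.22, but 0.37 and not passing within cluster 1), and the de novo DNA methyltransferase gene Dnmt3a (0.85 ± 0.17).

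Because these genes are known targets of E2F factors, the 250 bases before the first listed start of each gene were searched for the E2F sites TTTCCCGC and TTTGGCGC on both strands, in RefSeq promoters of GRCm38.p6 that matched 6109 of the 7435 genes. Either site stood in 11.8% of 51 promoters of the licensing, fork and deoxynucleotide lists, in 6.41% of 608 promoters of genes that fell by 1 or more, in 4.99% of 1702 of all that fell, in 1.97% of 1622 of all that rose and in 3.03% of all genes tested. Over all 27025 promoters of the table the share was 1.35%. The promoters of the 2 strongest such genes are shown to place the site, which is in capitals. Hells, a chromatin remodeller needed for DNA methylation, stood at 8.88, 7.07 and 7.52 after 24 h and at 10.66, 10.57, 11.27 and 10.81 without treatment (-3.01 ± 0.30), and its promoter lies at chr19:38930740-38930989 on the plus strand.
Hells: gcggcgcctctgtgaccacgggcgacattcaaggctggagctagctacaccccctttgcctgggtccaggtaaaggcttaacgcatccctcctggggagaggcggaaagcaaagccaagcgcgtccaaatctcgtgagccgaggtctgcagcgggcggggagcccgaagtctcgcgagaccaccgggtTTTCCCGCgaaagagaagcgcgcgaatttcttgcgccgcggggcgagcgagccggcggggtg
Cdc6: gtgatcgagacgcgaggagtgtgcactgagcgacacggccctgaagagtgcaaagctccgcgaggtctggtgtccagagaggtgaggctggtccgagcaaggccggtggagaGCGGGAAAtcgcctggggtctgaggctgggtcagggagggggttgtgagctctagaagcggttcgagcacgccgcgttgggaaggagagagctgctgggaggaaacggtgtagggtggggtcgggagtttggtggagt
The Cdc6 promoter lies at chr11:98907901-98908150 on the plus strand, and its site reads on the opposite strand. The sites begin 62 bases before the start in Hells and 138 bases before it in Cdc6. A match describes these letters and does not show that a factor binds there.

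Genes of mitosis fell to a similar extent. Of 20 mitotic kinase and anaphase-promoting complex genes 19 fell, with a median of -1.65 and array medians of -1.06, -2.13 and -1.63. Aurkb, the kinase of the chromosomal passenger complex, stood at 8.77, 7.22 and 7.48 after 24 h and at 10.75, 10.88, 10.52 and 10.66 without treatment (-2.88 ± 0.25, limma adjusted p = 4.49e-09). Cyclin A2 (Ccna2) stood at 9.34, 8.77 and 9.16, against 11.30, 11.43, 11.47 and 11.30 in untreated cells (-2.29 ± 0.14). The exception was Cdc25b, a phosphatase that activates cyclin-dependent kinases, which rose by 0.69 ± 0.12. Of 24 kinetochore and spindle checkpoint genes 21 fell and none rose (median -1.36), led by Cenpn (-2.18 ± 0.11) and Cenph (-2.14 ± 0.20), subunits of the centromere network. Cenpa, the centromeric histone, did not pass at -0.28, but did at -0.53 without WT 24 h replicate 1. Of 22 spindle and cytokinesis genes 20 fell (median -1.49), with the cleavage furrow scaffold Anln at -2.38 ± 0.17 and the spindle proteins Tacc3 and Aspm at -1.99 ± 0.18 and -1.95 ± 0.21, while Numa1, a spindle pole protein also found in interphase nuclei, rose by 0.58 ± 0.10.

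Condensin and cohesin genes were split. Of 16 tested, 13 fell and 2 rose (median -0.86). The condensin subunits Ncapg2 and Ncapd2 showed -1.96 ± 0.17 and -1.94 ± 0.20, and the core ATPase subunit Smc2 -1.44 ± 0.17. Its partner ATPase Smc4 stood at 13.33, 13.72 and 13.48 after 24 h and at 12.24, 12.26, 12.60 and 12.53 without treatment, a rise of 1.10 ± 0.14. The 2 ATPases that pair in the same complex therefore lay on opposite sides, without overlap of groups in either. Of 57 promoters of the mitosis lists 29.8% held the cell cycle homology elements TTTGAA or TTCGAA on either strand, against 12.2% of all genes tested and 17.4% of all promoters in the table. In a culture of mixed cell cycle phases, fewer cells in a phase and less RNA per cell cannot be told apart.

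Among 22 G1 cyclin and E2F genes 12 fell and 3 rose (median -0.60), against 27.5% of all genes that fell and 26.4% that rose. Cyclin E2 (Ccne2) stood at 6.34, 4.97 and 5.01 after 24 h and at 9.35, 8.90, 9.27 and 8.78 without treatment (-3.64 ± 0.32, limma adjusted p = 7.03e-09). Cyclin D3 (Ccnd3), the D cyclin of thymocytes, showed -1.43 ± 0.20, and Skp2, which targets the inhibitor p27 for degradation, -2.79 ± 0.22. The pocket protein gene Rbl1 and the kinase inhibitor genes Cdkn2c and Cdkn2d of the same list did not pass. The 3 that rose also encode proteins known to hold cells in G1. They were the pocket proteins Rbl2 and Rb1 (2.10 ± 0.32 and 0.63 ± 0.19, the second not passing without WT 24 h replicate 2) and p27 itself, Cdkn1b, at 9.50, 10.72 and 10.62 after 24 h and 8.50, 8.22, 8.93 and 9.45 without (1.50 ± 0.30). The lowest treated array for Cdkn1b lay only just above the highest untreated one. Myc, a driver of growth, stood at 8.84, 8.02 and 8.00 after 24 h and at 10.12, 10.01, 10.98 and 10.67 without (-2.16 ± 0.30), with no overlap.

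**Figure D2:**
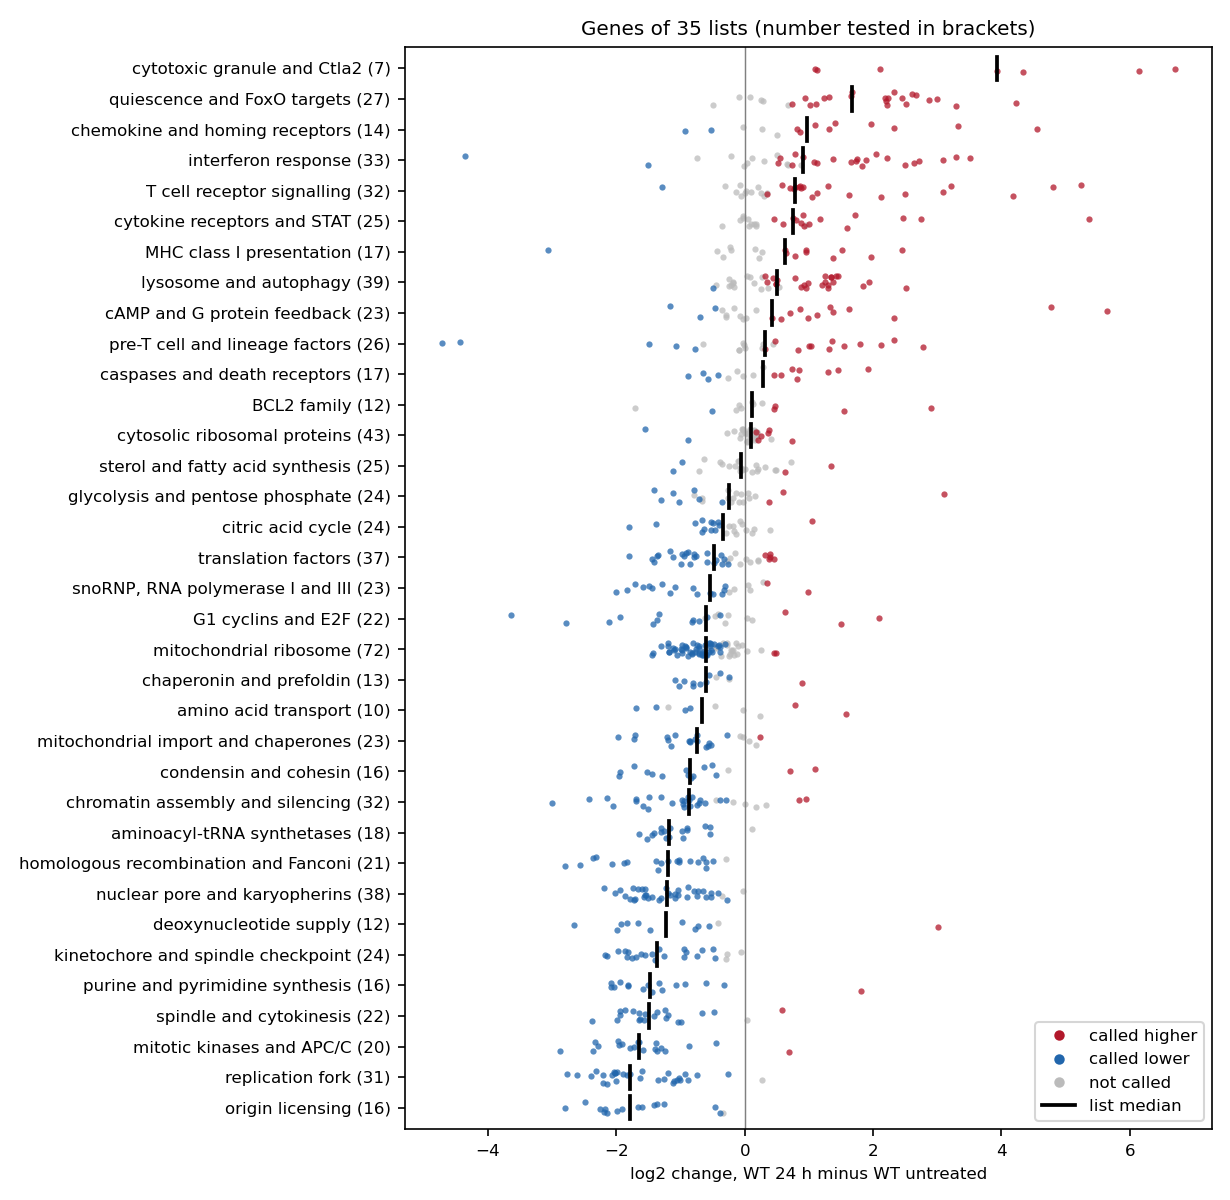
Log2 change, WT 24 h minus untreated WT, of each tested gene of 35 lists, with list medians as bars and dots coloured by the call. Dim genes are drawn at the fitted difference. Lists of replication and mitosis lie left of 0 with medians down to -1.79, and the granule and quiescence lists lie right of 0 with medians of 3.93 and 1.67.

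Genes that feed growth also fell, in a graded way. Of 16 genes of purine and pyrimidine synthesis 15 fell (median -1.47), with the purine enzymes Gart and Ppat at -2.09 ± 0.21 and -2.08 ± 0.19 and the pyrimidine enzyme Umps at -1.94 ± 0.19. CTP synthase was split between its 2 genes. Ctps fell, standing at 8.92, 8.00 and 8.21 after 24 h and at 10.35, 10.33, 10.50 and 10.47 without treatment (-2.04 ± 0.17), and Ctps2 rose, standing at 7.66, 8.75 and 8.34 and at 6.09, 6.06, 7.05 and 6.58 (1.81 ± 0.29). Neither gene showed overlap between treated and untreated arrays. Of 38 nuclear pore and karyopherin genes 36 fell and none rose (median -1.21), led by Nup43 (-2.19 ± 0.20), the exporter Xpo5 (-2.02 ± 0.27) and Rcc1 (-1.94 ± 0.25), which charges Ran with GTP.

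Of 18 aminoacyl-tRNA synthetase genes, which charge tRNAs with amino acids, 17 fell and none rose (median -1.18, array medians -0.80, -1.48 and -1.26). Over all genes tested 27.5% fell and 26.4% rose. Yars, the tyrosine enzyme, stood at 7.37, 7.34 and 6.98 after 24 h and at 8.62, 8.67, 9.09 and 9.08 without treatment (-1.64 ± 0.14, limma adjusted p = 5.54e-09). Cars and Iars, for cysteine and isoleucine, showed -1.53 ± 0.18 and -1.45 ± 0.17, and only Qars, for glutamine, did not pass, at 0.11. Of 37 translation factor genes 24 fell and 5 rose (median -0.48), with the initiation factor Eif1a at -1.37 ± 0.09 and the release factor Gspt1 at -1.35 ± 0.13, and with Eef2, which moves the ribosome along, at 0.46 ± 0.11. Of 23 genes of snoRNPs and RNA polymerases I and III 16 fell and 2 rose (median -0.54). The polymerase I subunit Polr1b showed -2.01 ± 0.37 and the snoRNP proteins Nhp2 and Nop58 -1.84 ± 0.37 and -1.59 ± 0.19, while the polymerase III subunit Polr3k rose by 0.99 ± 0.11.

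Cytosolic ribosomal protein genes did not share these falls. Of 43 tested, 6 rose, 2 fell and 35 did not pass, with a median of 0.10 and array medians of 0.05, 0.12 and 0.11. Over all genes tested 26.4% rose and 27.5% fell. With quantile normalization added the median was 0.02 and 3 rose. These genes lie near the top of the intensity range, with a median level of 14.59 in WT 24 h and 14.42 in untreated WT, and whether changes are compressed there was not tested. Of 72 mitochondrial ribosomal protein genes 51 fell and 2 rose (median -0.61), among them Mrps28 (-1.45 ± 0.28) and Mrpl12 (-1.30 ± 0.31). Of 23 mitochondrial import and chaperone genes 18 fell and 1 rose (median -0.74), with the import channel gene Tomm40 at -1.72 ± 0.24 and the matrix chaperone Hspa9 at -1.21 ± 0.10. Of 13 chaperonin and prefoldin genes 10 fell and 1 rose (median -0.61). The chaperonin subunit Cct3 showed -1.02 ± 0.12, and the prefoldin subunit Pfdn5, also known as a MYC-binding protein, rose by 0.89 ± 0.18.

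Of 24 genes of glycolysis and the pentose phosphate pathway 7 fell, 3 rose and 14 did not pass (median -0.24), against 27.5% of all genes that fell and 26.4% that rose, so the share that fell was near that of all genes. Slc2a3, a glucose transporter, stood at 11.61, 12.50 and 12.37 after 24 h and at 8.91, 8.70, 8.57 and 10.08 without treatment, a rise of 3.10 ± 0.31 (limma adjusted p = 3.26e-08). The lactate exporter Slc16a1 stood at 11.31, 11.32 and 11.31, against 12.29, 12.17, 12.67 and 12.59 in untreated cells (-1.12 ± 0.17), and the ribose phosphate isomerase gene Rpia showed -1.42 ± 0.16. The groups did not overlap for Slc2a3 or Slc16a1, which moved apart, while the glucose transporter gene Slc2a1 did not pass, at -0.67, but did with array weights (-1.02), within cluster 1 (-1.09) and without WT 24 h replicate 2 (-1.10). Of 24 citric acid cycle genes 12 fell, 1 rose and 11 did not pass (median -0.34), with Suclg2 and Idh3a at -1.81 ± 0.19 and -1.38 ± 0.10 and Pdha1, a pyruvate dehydrogenase subunit, at 1.05 ± 0.18. Of 25 sterol and fatty acid synthesis genes 2 rose, 2 fell and 21 did not pass (median -0.06). The fatty acid synthase gene Fasn showed -0.97 ± 0.15 and the sterol demethylase Cyp51 1.35 ± 0.35. Within cluster 1, with 1 treated array, Fasn gave only -0.27 and Cyp51 1.14. Of 10 amino acid transporters 4 fell and 2 rose, with the glutamine carrier Slc1a5 at -1.70 ± 0.14 and the carrier Slc38a1 at 0.78 ± 0.19.

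Genes known from resting lymphocytes and as targets of FoxO factors rose. Of 27 tested, 21 rose and none fell, with a median of 1.67 and array medians of 1.11, 1.99 and 2.06, against 0.00 ± 0.24 (SD, n = 4) on untreated arrays and 26.4% of all genes that rose. Ypel3, linked in human cells to growth arrest, stood at 8.19, 9.56 and 9.09 after 24 h and at 4.91, 4.58, 5.03 and 4.33 without treatment, a rise of at least 3.94 (limma adjusted p = 1.51e-09). Mxd4, which opposes MYC at shared sites, stood at 11.82, 12.29 and 12.34 after 24 h and at 8.66, 9.06, 9.02 and 8.70 without (3.29 ± 0.26). Ccng2, a cyclin that rises in arrested cells, stood at 11.03, 12.13 and 11.63, against 8.91, 7.60, 8.74 and 9.65 (2.87 ± 0.39). Groups were separated in each. Txnip, which restrains glucose uptake, rose by 2.67 ± 0.44, and the FoxO factors Foxo1 and Foxo3 by 2.45 ± 0.20 and 1.24 ± 0.17, a pair chosen after the values were seen. Klf2, a factor of resting T cells, did not pass at -0.09, nor did Bcl6 at -0.49.

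Of 39 lysosome and autophagy genes 24 rose and 1 fell, against 26.4% of all genes that rose and 27.5% that fell. The list median was 0.51, with array medians of 0.59, 0.69 and 0.61. Lipa, the lysosomal acid lipase, stood at 10.15, 10.42 and 10.48 after 24 h and at 7.78, 7.45, 7.93 and 8.17 without treatment (2.52 ± 0.19, limma adjusted p = 9.08e-10). Lamp2, a lysosomal membrane protein, stood at 12.35, 12.36 and 12.36, against 10.44, 10.31, 10.82 and 10.48 (1.84 ± 0.18). The treated arrays were nearly identical for Lamp2 and lay above all untreated ones. The autophagosome protein gene Gabarap rose by 1.43 ± 0.13 and the lysosomal protease gene Tpp1 by 1.46 ± 0.16. The lysosomal gene regulator Tfeb did not pass at 0.27, and neither did the conjugation factors Atg5 and Atg7 at -0.18 and -0.24. With array weights Tfeb passed at 0.47 and Atg7 at -0.41.

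Of 23 genes of cAMP signalling and its feedback 12 rose and 3 fell (median 0.42). Over all genes tested 26.4% rose and 27.5% fell. Crem, whose inducible product represses CREB sites, stood at 9.73, 10.40 and 9.50 after 24 h and at 4.26, 4.17, 4.32 and 4.19 without treatment, a rise of at least 4.88 (limma adjusted p = 7.5e-09). Rgs2, which turns off G proteins, stood at 10.09, 10.13 and 10.19 after 24 h and at 6.58, 4.24, 5.57 and 5.03 without (4.78 ± 0.33). Both genes were still far above the untreated range a day after the analogue was added. Pde1b, a cyclic nucleotide phosphodiesterase, rose by 2.32 ± 0.33 and the cAMP-activated exchange factor Rapgef3 by 1.62 ± 0.32. The PKA anchor Akap1, which sits on mitochondria, showed -1.16 ± 0.19, and the PKA catalytic subunit Prkaca and Creb1 did not pass, at -0.17 and -0.29. Creb1 did pass within cluster 2 (-0.40) and as the mean of its probe sets (-0.43). The early genes Nr4a1 and Fos were less raised by now. Nr4a1 stood at 9.04, 9.00 and 9.07 after 24 h and at 8.93, 8.11, 7.26 and 8.50 without (0.84 ± 0.29), close to the highest untreated array, and gave 0.52 without untreated replicate 3, which no longer passed (adjusted p = 0.0877). Fos showed a rise of at least 1.10.

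The palindromic cAMP response element TGACGTCA was searched in the same promoters. It stood in 2.65% of 1622 promoters of genes that rose, in 3.06% of 1702 of those that fell, in 2.75% of all genes tested and in 1.62% of all promoters in the table. The 2 promoters below, from the groups described above, carry it in capitals before genes that moved in opposite directions. Dusp1, a MAP kinase phosphatase, stood at 8.90, 10.29 and 9.96 after 24 h and at 6.67, 5.58, 6.91 and 7.71 without treatment (3.00 ± 0.42), and its promoter lies at chr17:26508473-26508722 on the minus strand.
Dusp1: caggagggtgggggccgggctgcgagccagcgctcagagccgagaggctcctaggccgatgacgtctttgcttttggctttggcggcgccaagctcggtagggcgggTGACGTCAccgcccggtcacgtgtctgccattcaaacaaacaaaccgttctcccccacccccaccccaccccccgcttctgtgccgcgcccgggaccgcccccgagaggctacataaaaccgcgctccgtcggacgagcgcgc
Mcm5: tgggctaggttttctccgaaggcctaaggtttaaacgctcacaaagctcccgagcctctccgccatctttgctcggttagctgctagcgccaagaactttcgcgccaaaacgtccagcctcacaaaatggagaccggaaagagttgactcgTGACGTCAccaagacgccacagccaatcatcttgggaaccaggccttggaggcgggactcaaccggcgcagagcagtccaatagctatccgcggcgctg
The Mcm5 promoter lies at chr8:75109259-75109508 on the plus strand. The element begins 143 bases before the start in Dusp1, whose level rose, and 99 bases before it in Mcm5, whose level fell. The Mcm5 promoter also holds the E2F site TTTGGCGC on the opposite strand, beginning 149 bases before the start, and the Dusp1 promoter holds TTTGAA on the opposite strand, beginning 113 bases before it, both left in lower case.

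Of 12 BCL2 family genes, which control cell death at mitochondria, 4 rose, 1 fell and 7 did not pass (median 0.12), against 26.4% of all genes that rose and 27.5% that fell. Bcl2l11, which encodes the death activator BIM, stood at 11.31, 12.44 and 12.10 after 24 h and at 9.19, 8.86, 9.05 and 9.13 without treatment (2.90 ± 0.22, limma adjusted p = 8.73e-10), with no overlap. Bcl2l14 rose by 1.54 ± 0.20, and the survival genes Bcl2, Bcl2l1 and Mcl1 gave 0.12, 0.13 and 0.27, none of which passed, although Mcl1 did at 0.53 as the mean of its probe sets. Bid, an activator cleaved by caspase 8, showed -0.51 ± 0.14, and the activator gene Bbc3 gave -0.13. Of 17 caspase and death receptor genes 8 rose, 4 fell and 5 did not pass (median 0.28), against the same shares. Those that rose included inhibitors, Birc3 and Cflar, at 1.92 ± 0.23 and 1.46 ± 0.19, and activators, the death receptor gene Fas and Casp8, at 1.29 ± 0.30 and 0.82 ± 0.12. Fas gave 0.35 within cluster 1 and did not pass there. Cytochrome c (Cycs) showed -0.88 ± 0.16. Cflar moved less, by 0.75, as the mean of all its probe sets.

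All 7 tested genes of cytotoxic granules and the Ctla2 pair rose, with a median of 3.93, against 26.4% of all genes that rose. The other 12 of the 19 on the array did not reach the level filter. None of the 7 passed it only through WT 24 h arrays. Whether Ctla2b and Gzmb, under log2 5 on every untreated WT array, passed only through treated arrays was not tested. If so, a higher level with treatment was fixed by the filter. Srgn, the proteoglycan core of granules, stood at 14.55, 14.61 and 14.83 after 24 h and at 10.65, 10.88, 11.12 and 10.27 without treatment (3.93 ± 0.21, limma adjusted p = 5.25e-12). Gzmb, the granule protease granzyme B, stood at 7.61, 10.50 and 8.97, against 4.61, 4.74, 4.71 and 4.71, a rise of at least 4.03 that did not pass within cluster 1 (adjusted p = 0.464). Serpinb9, which inhibits granzyme B, rose by 2.11 ± 0.28. Treated arrays lay above untreated ones in each, with a spread of nearly 3 log2 units among treated arrays for Gzmb.

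Of 32 genes of T cell receptor signalling 20 rose and 1 fell, against 26.4% of all genes that rose and 27.5% that fell. The list median was 0.78, with array medians of 0.47, 0.85 and 0.85. Ptpn22, a phosphatase that dampens the receptor's kinases, stood at 12.27, 12.69 and 12.67 after 24 h and at 8.45, 7.98, 8.71 and 8.29 without treatment (4.18 ± 0.17, limma adjusted p = 7.96e-14). Dgka, which removes diacylglycerol, stood at 9.59, 10.18 and 9.90, against 6.58, 6.85, 6.85 and 6.43 (3.21 ± 0.20), and Ctla4 was described above. Other genes of the list known to restrain the receptor, Cbl, Dgkz, Ptpn2 and Sla, did not pass, at 0.25, 0.30, 0.20 and 0.02, although with quantile normalization added Dgkz passed at 0.42 and Ptpn2 at 0.33, and Ptpn2 passed at 0.25 without WT 24 h replicate 1. Among activating components, the kinase gene Prkcq rose by 3.09 ± 0.29, the kinase Zap70 by 1.05 ± 0.08 and the receptor chain Cd3d by 0.79 ± 0.09. Cd2, an adhesion receptor, fell by its brightest probe set, to 4.50, 6.09 and 6.28, against 7.12, 6.89, 6.80 and 6.85 (-1.29 ± 0.30), and showed -0.73 without WT 24 h replicate 1, the lowest array. Cd4 and Cd8a did not pass, at -0.07 and -0.06.

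Lineage genes moved in both directions. Of 26 tested, 12 rose and 5 fell (median 0.31), against 26.4% of all genes that rose and 27.5% that fell. Besides Ptcra and Rag1, its partner Rag2 fell, standing at 5.63, 6.53 and 6.12 after 24 h and at 7.86, 7.66, 7.54 and 7.28 without treatment (-1.49 ± 0.27). Gata3, a factor of helper T cells, stood at 11.91, 12.33 and 12.20, against 10.22, 10.09, 10.64 and 10.49 (1.79 ± 0.26). Id2, which blocks E proteins, stood at 11.12, 11.88 and 11.70, against 9.44, 8.81, 9.34 and 10.19 (2.12 ± 0.28). The groups did not overlap in Rag2, Gata3 or Id2, nor did they in 53.0% of all genes. The lipid-presenting molecule gene Cd1d1 rose by 2.78 ± 0.30 and the nuclear receptor gene Rora by 2.32 ± 0.52. Dntt, which adds bases at V(D)J joins, and Notch1 did not pass, at -0.09 and -0.65, although Notch1 did at -0.77 as the mean of its probe sets.

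Of 33 interferon response genes 21 rose and 2 fell, against 26.4% of all genes that rose and 27.5% that fell. The list median was 0.91, or 0.85 with bounds, with array medians of 0.50, 0.85 and 1.13. The receptor chains Ifngr1 and Ifnar1, for interferon gamma and type I interferons, rose by 3.30 ± 0.19 and 2.71 ± 0.18, and the factor Irf8 by 3.51 ± 0.35. Ifngr1 stood at 11.58, 12.22 and 12.14 after 24 h and at 8.91, 8.52, 8.66 and 8.63 without treatment (limma adjusted p = 2.07e-11), far apart. The GTPase gene Igtp stood at 8.17, 10.41 and 10.65, against 7.24, 6.85, 7.03 and 7.28 (2.64 ± 0.58), with replicate 1 less than 1 log2 unit above the highest untreated array. Bst2, an antiviral membrane protein, showed -1.50 ± 0.15, and Mx1, Rsad2 and Ifit3 did not pass, at 0.03, 0.12 and 0.30. Ifit3 did pass with array weights (0.38) and without WT 24 h replicate 2 (0.50). Myeloid marker gene Itgam, an integrin chain also found on activated lymphocytes, rose by at least 1.24, and its part in the immune gene groups was not tested.

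Of 17 MHC class I presentation genes 9 rose and 1 fell (median 0.62), against 26.4% of all genes that rose and 27.5% that fell. The same shares apply to the chemokine and cytokine receptor lists below. The peptide-loading genes Tapbpl and Tapbp, which encode TAPBPR and tapasin, rose by 2.45 ± 0.34 and 1.97 ± 0.24. The peptide transporter subunit Tap1 rose by 1.37 ± 0.28, while its partner Tap2 did not pass at 0.23, although it did at 0.35 within cluster 2. The classical class I gene H2-K1 did not pass either, at -0.34. H2-D1 rose by 1.51 ± 0.18 by its brightest probe set but by 0.45 as the mean of its probe sets. Among these, probe sets at -0.79 and -0.48 were called lower. Of 14 chemokine and homing receptor genes 9 rose and 2 fell (median 0.97, or 0.84 with bounds). Of the 14, 1 passed the level filter only through WT 24 h arrays, so a higher value in it was fixed by the filter. Whether that gene is Ccr7, under log2 5 on every untreated WT array, is not given here. If so, the rise and separation of Ccr7 were fixed by the filter. Ccr7, the receptor that guides T cells to lymph nodes, stood at 7.50, 8.08 and 7.90 after 24 h and at 4.34, 4.54, 4.67 and 4.44 without treatment, a rise of at least 2.83. Selplg, the ligand of selectins, stood at 12.12, 11.88 and 12.03, against 9.89, 9.85, 9.54 and 9.45 (2.33 ± 0.20). Cxcr4, a receptor of thymocyte homing, fell, standing at 10.20, 10.52 and 10.69, against 11.25, 11.20, 11.60 and 11.54 (-0.93 ± 0.19). None of the 3 overlapped between groups. Of 25 cytokine receptor and STAT genes 14 rose and none fell (median 0.75), with the interleukin 12 receptor chain Il12rb1 at 2.75 ± 0.30, the TGF beta receptor chain Tgfbr2 at 2.46 ± 0.25 and Stat5b at 1.60 ± 0.11. Il2ra, the interleukin 2 receptor alpha chain, gave 0.95 and did not pass (adjusted p = 0.0532), but 1.87 as the mean of its probe sets, which passed.

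The 24 h arrays were also set against the 3 WT arrays at 6 h, which asks what was added late. At 24 h 15.5% of genes were higher than at 6 h (1152) and 16.9% lower (1260). Over probe sets the count was 3936, but 2308 with only the groups compared and 6779 with array weights. Most lists of replication and mitosis fell mainly after 6 h. Of 31 fork genes 30 were lower at 24 h than at 6 h, of 24 kinetochore genes 23, of 22 spindle genes 20 and of 16 licensing genes 14. The median changes of the spindle list were 0.18 at 2 h, 0.30 at 6 h and -1.49 at 24 h against untreated cells, so it lay above the untreated level at 6 h and below it at 24 h. Those of the licensing list were -0.01, -0.29 and -1.79. The deoxynucleotide list was an exception, with -0.07, -0.58 and -1.22 and 5 of 12 genes lower at 24 h than at 6 h. By contrast the synthetase list had -0.15, -0.66 and -1.18, with 7 of 18 genes lower at 24 h than at 6 h, and the quiescence list had 0.78, 0.93 and 1.67, with 10 of 27 higher. In the snoRNP and polymerase list, with -0.39, -0.66 and -0.54, 2 of 23 were lower than at 6 h and 5 higher. All times were set against the same untreated arrays.

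**Figure D3:**
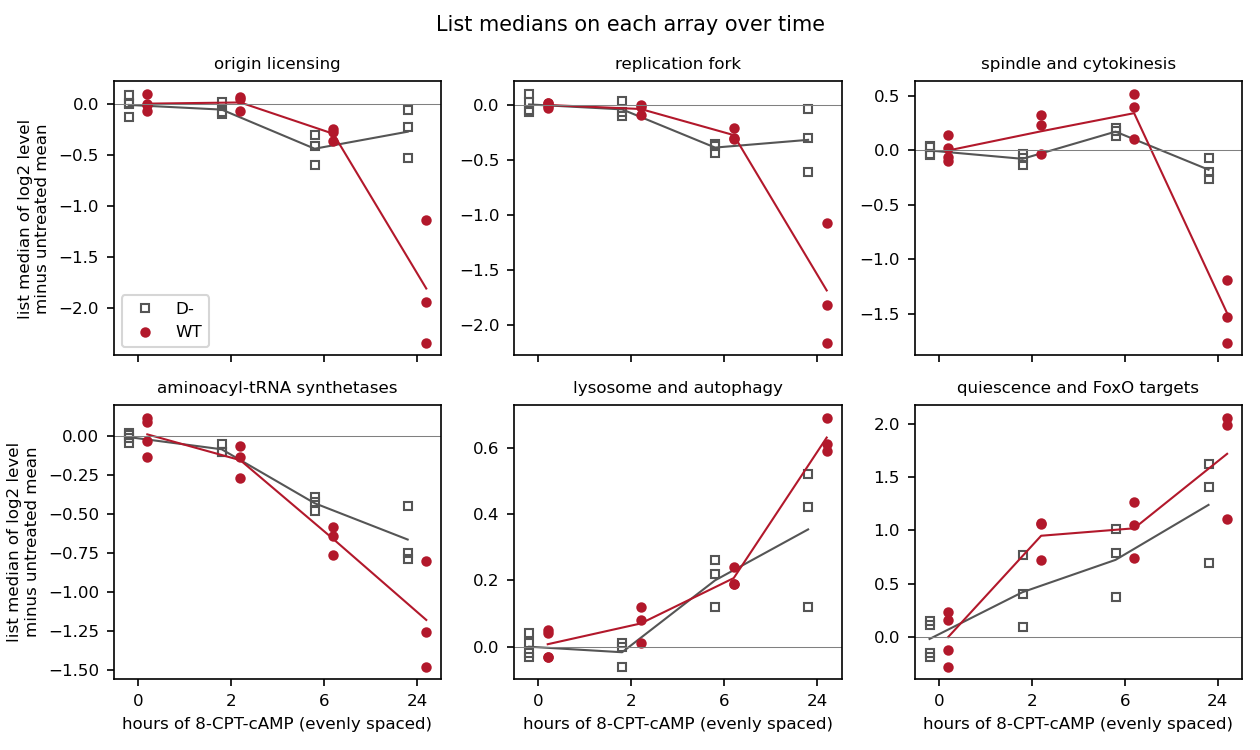
Median over the genes of 6 lists of the log2 level minus the mean of the same line's untreated arrays, per array, against hours of 8-CPT-cAMP, with D- as open squares, WT as filled dots and lines through the group means. In WT the replication and spindle lists drop between 6 and 24 h, to means of -1.68 for the fork and -1.50 for the spindle list, while the lysosome list reaches 0.63.

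The largest single rises between 6 and 24 h included genes that were dim until then. Scg5, a chaperone of a prohormone convertase in neuroendocrine cells, had means of 4.48 in untreated cells, 4.74 at 2 h and 4.60 at 6 h and stood at 7.75, 10.10 and 9.82 at 24 h. Pparg, a nuclear receptor of lipid metabolism, had means of 3.99 in untreated cells, 3.87 at 2 h and 4.21 at 6 h and stood at 7.45, 8.37 and 7.96 at 24 h. Both lay under the measurable level at every earlier time, so the rises are bounds, at least 4.22 for Scg5 and at least 2.93 for Pparg. Both are among the 43 genes that passed the level filter only through the WT 24 h arrays, so that a rise there was fixed by the filter and is given as a description. Naip5, an inflammasome receptor for flagellin, was 2.98 ± 0.60 higher at 24 h than at 6 h (limma adjusted p = 0.000645), the membrane gene Ms4a4b 3.20 ± 0.46, Tktl1 2.84 ± 0.51 and the lysophospholipase gene Pnpla7 2.76 ± 0.23. Plac8 was 3.04 ± 1.07 higher than at 6 h but not called against untreated cells (1.58), although it passed with only the groups compared (1.58, adjusted p = 0.0446), within cluster 1 (1.09) and within cluster 2 (2.30). Among the largest falls since 6 h were the mitosis genes Pmf1 (-2.76 ± 0.33), Ercc6l (-2.62 ± 0.19), Melk (-2.54 ± 0.18), Ttk (-2.50 ± 0.21) and Ska1 (-2.36 ± 0.27). Gbp3, an interferon-inducible GTPase, had means of 5.46 ± 0.31 at 24 h and 7.96 ± 1.23 at 6 h (SD, n = 3 each) (-2.51 ± 0.42). Against untreated cells it was not called at 24 h, but it passed at 0.93 with array weights, at 0.68 with only the groups compared and at 0.54 within cluster 1. Nr4a1 and Bcl2l11 moved apart in this interval, at -1.38 ± 0.31 and 1.54 ± 0.23.

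The 24 h response was set against that of D- cells at 24 h as an interaction, which asks what differs between cells that survive cAMP and cells that do not. The difference, D- minus WT, was called for 12.3% of genes, positive for 544 (7.32%) and negative for 372 (5.00%). Over all probe sets the shares were 7.10% positive and 4.69% negative. The replication and mitosis falls were smaller in D-. Their median changes at 24 h were -0.28 in D- and -1.79 in WT for licensing, -0.32 in D- and -1.78 in WT for the fork, and -0.20 in D- and -1.49 in WT for the spindle. A positive difference was called for 13 of 16 licensing genes, 28 of 31 fork genes, 17 of 22 spindle genes and 16 of 20 mitotic kinase genes. The growth lists were not uniform. A positive difference was called for 6 of 16 purine and pyrimidine genes and 14 of 38 nuclear pore and karyopherin genes, for 3 of 18 synthetase genes, and for 0 of 23 genes in both the mitochondrial import and the snoRNP and polymerase list, and the synthetase medians were -0.70 in D- and -1.18 in WT. Of the quiescence list 4 of 27 were called, all negative, with medians of 1.12 in D- and 1.67 in WT. The count for this difference depended on single WT arrays, at 2352 probe sets without WT 24 h replicate 1 and 962 without replicate 2, against 1500 with all.

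**Figure D4:**
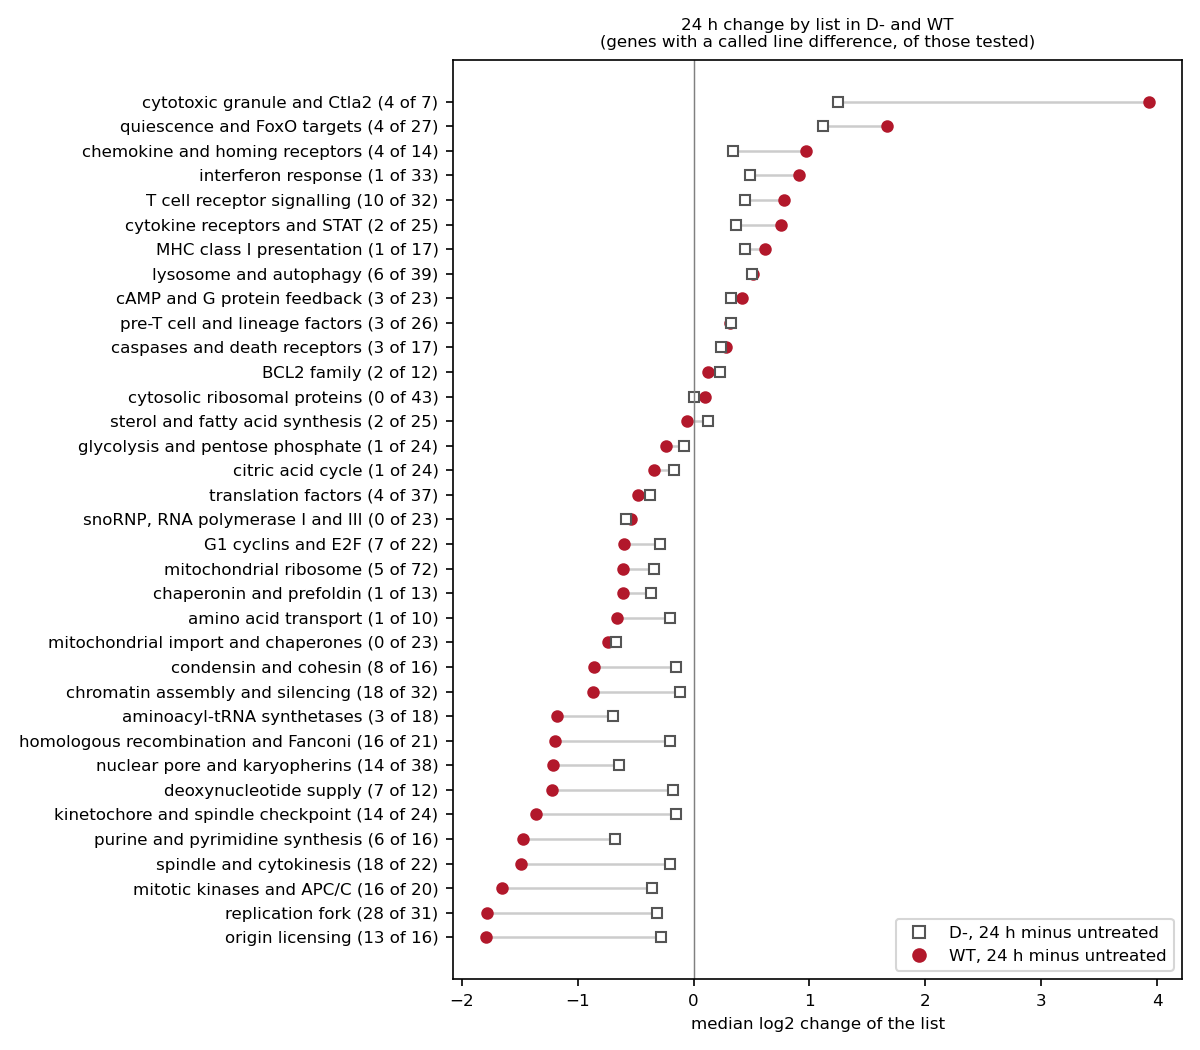
Median log2 change at 24 h over the genes of each list in D- (squares) and WT (dots), each line against its own untreated arrays, with the number of genes whose D- minus WT difference was called. Licensing and fork genes lie at -0.28 and -0.32 in D- and at -1.79 and -1.78 in WT. The lysosome list lies at 0.50 in D- and 0.51 in WT, with 6 of 39 genes called lower in D- and a median difference of -0.26.

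The 8 largest negative differences were in genes that rose in WT, of which Ctla2a also rose in D-. Ctla2b changed by 0.24 ± 0.26 in D- cells, where it stayed under log2 5, and the difference was -6.47 ± 0.37 (limma adjusted p = 2.33e-10), a fitted value because of dim groups. Ctla2a changed by 1.25 ± 0.36 in D- and by 6.14 ± 0.36 in WT, a difference of -4.89 ± 0.50. Pparg, with means of 3.73 ± 0.08 (SD, n = 3) in D- at 24 h and 3.75 in untreated D- cells, had a fitted difference of -3.95 ± 0.33. For Pparg and Scg5 a negative difference was fixed in the same way by the filter. Scg5, Naip5, Patj, Pglyrp2 and Cxcr6 had fitted differences of -3.66, -3.62, -3.55, -3.31 and -3.20. Patj encodes a cell polarity scaffold and Pglyrp2 a peptidoglycan amidase, and both rose in WT, by at least 2.50 and 2.88. Scg5 and Cxcr6 changed by 1.08 and 1.37 in D-, which did not pass, and their D- 24 h arrays spread widely, with SDs of 1.43 and 1.49, so those values are less certain.

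On the other side, Rag1 fell less in D-, by -1.54 ± 0.27 on the log2 scale in D- and -4.43 ± 0.27 in WT, a difference of 2.89 ± 0.38 (limma adjusted p = 3.99e-05). Nrm, an inner nuclear membrane protein, changed by 0.31 ± 0.35 in D- and by -2.63 ± 0.35 in WT, a difference of 2.94 ± 0.50. Chn2, Chst1, Gli1, Grb7, Tent5c and Dio1 were measurable at 24 h in D-, with means of 7.56, 8.92, 6.63, 6.41, 6.45 and 6.29, and lay under log2 5 in both WT groups. Whether they passed the level filter only through treated D- arrays was not tested. In that case the filter would have fixed the sign of their differences. Of the genes followed in any case, Bcl2l11 had a difference of -1.62 ± 0.31, Crem -2.73 ± 0.71, Ccnd3 1.07 ± 0.28 and Nr4a1 1.49 ± 0.41. Myc, Cdkn1b, Rgs2, Ptcra and Fos had differences of 0.64, -0.39, -0.13, 0.25 and 0.81 that did not pass. For Rgs2, whose rise was 4.65 ± 0.33 in D- and 4.78 ± 0.33 in WT, the standard error of the difference was 0.47, and missing the threshold does not show that the lines respond alike.

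**Figure D5:**
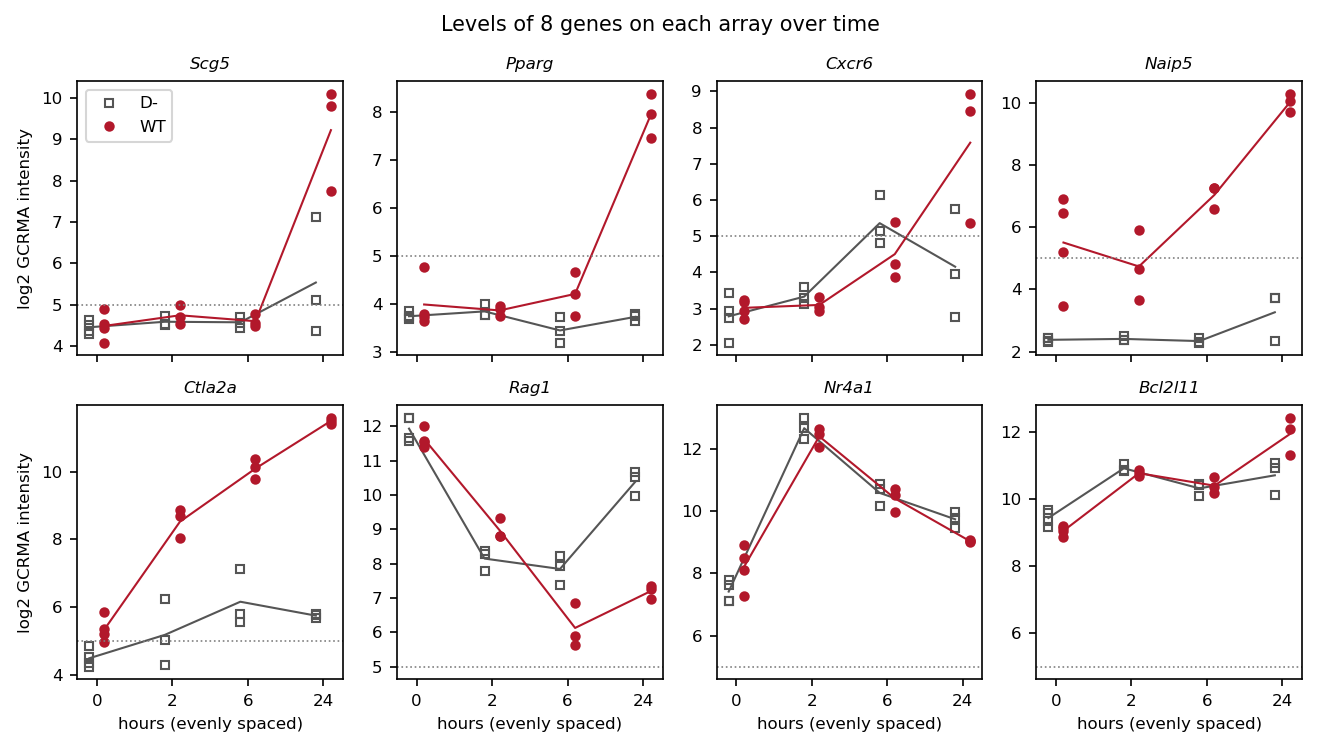
Log2 GCRMA intensity of 8 genes on every array of the series against hours of 8-CPT-cAMP, with D- as open squares, WT as filled dots, lines through group means and the dotted line at log2 5. Scg5 and Pparg are dim in WT until 24 h. Ctla2a climbs in WT and lies between 4.25 and 7.12 on the D- arrays. Nr4a1 peaks at 2 h and lies between 9.00 and 9.07 on the WT 24 h arrays.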

How the data were processed

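RNA from WT and D- S49 cells was measured on 26 single-colour Affymetrix arrays, grouped by the labels. Per the submitters' processing notes, GCRMA gave the deposited intensity values (2 to 83530.7, linear scale), and its version is not given in the sources used here. They were put on a log2 scale here without a pseudocount or another normalization. Of 22690 probe sets 64 controls were left out, and by the platform annotation 20380 had 1 gene symbol, 691 several and 1555 none, of which 20351 with 1 symbol matched RefSeq by gene ID. Only probe sets with 1 symbol were named.

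limma 3.58.1 in R 4.3.3 was fitted to all 26 arrays in 8 groups (18 residual and 3.34 prior degrees of freedom). Contrasts were WT 24 h minus untreated WT, WT 24 h minus WT 6 h, the D- minus WT difference of the 24 h response, and the earlier times for context. The fit was tested on simulated data. For arrays, their number limits the precision.

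The comparison, the 40 gene lists (35 of pathways, 5 of cell types) and the naming rule were chosen with earlier results of these data known. The rule took the 16 highest and 16 lowest genes without overlap, per list the 5 largest in the commoner direction, 3 in the other and any not called, 10 genes in any case, the 8 highest and 8 lowest of the other contrasts, and the 2 leading genes per promoter motif. The text names some of them. The 2 clusters hold arrays with positive and negative scores on the first principal component after group means were removed (38.8% of within-group variance). Deviations of equally numbered WT 24 h and untreated arrays correlated at 0.382, -0.301 and 0.173, and the numbers were not used as pairs. The arrays numbered 2 lay in different clusters, so these values cannot show whether equal numbers share a source. Promoters were RefSeq's (GRCm38.p6). Figures used matplotlib 3.10.9 in Python 3.11.15.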

Additional observations from a re-analysis of the deposited data

Results flagged for a closer look

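For 20 of the genes followed in any case or with the largest line differences, the 24 h change differed between D- and WT by the interaction term of the limma fit. The D- minus WT differences on the log2 scale were -2.73 for Crem, -1.62 for Bcl2l11, 2.89 for Rag1, 1.07 for Ccnd3 and 1.49 for Nr4a1. They were 4.04 for Chn2, 3.46 for Chst1, 3.36 for Gli1, 3.31 for Grb7, 3.06 for Tent5c, 2.94 for Nrm and 2.43 for Dio1. They were -6.47 for Ctla2b, -4.89 for Ctla2a, -3.95 for Pparg, -3.66 for Scg5, -3.62 for Naip5, -3.55 for Patj, -3.31 for Pglyrp2 and -3.20 for Cxcr6. All are fitted values, and those with a group under log2 5 rest on dim values. Pparg and Scg5 passed the level filter only through WT 24 h arrays, which fixed the sign of their differences. Whether Chn2, Chst1, Gli1, Grb7, Tent5c and Dio1 passed it only through treated D- arrays was not tested. Genes with a large difference were named because of it, so their number says nothing about how common such differences are.

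Of 209 genes named, 8 had 1 untreated WT array far from the other 3, where chance gives about 1 in 20. The untreated arrays that stood apart read 10.63 for Asf1b, 5.32 for Bcl6, 9.90 for Chdh, 12.33 for Hspa9, 6.23 for Il12rb1, 10.58 for Pole2, 4.78 for Pparg and 5.89 for Rsad2. For Asf1b the other 3 arrays were at 10.67, so the gap is small in itself, while for Pparg the array apart was replicate 1 and still lay under log2 5.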

How the results depend on the processing

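The count for WT 24 h against untreated WT was 6698 probe sets (3129 higher, 3569 lower). It lay between 6043 and 8321 under a fit restricted to the groups compared, array weights, the trend and robust fit, median centring, quantile normalization, a filter at log2 7, no filter, a filter on the compared arrays only, the cluster as a block and cluster 2 alone, and between 5781 and 6714 when 1 array was left out. Within cluster 1 it was 3631 (1795 higher, 1836 lower), where fewer arrays were fitted. The count for 24 h against 6 h, 3936, was 6779 with array weights, 2308 with only the groups compared and 0 within cluster 1 (limma, 2796 at an unadjusted p under 0.05), and between 3042 and 4173 with 1 array left out. The D- minus WT difference, 1500, was 3084 with array weights, 5 within cluster 1, 2277 within cluster 2, 2565 with a block for the cluster and between 962 (without WT 24 h replicate 2) and 2352 (without WT 24 h replicate 1) with 1 array left out. The cause of these differences was not tested. With the replicate number as a block the counts were 6997, 4659 and 1825. Equal numbers mark no shared source in the labels, although the clusters followed the replicate numbers in every group. Deviations of equally numbered WT 24 h and untreated WT arrays correlated between -0.301 and 0.382, which cannot show whether equal numbers share a source. As the mean of all probe sets, Tnfrsf1b gave 0.32 and Stmn1 -0.26, both passing and opposite in sign to the brightest probe set, which had not passed, and Rps9 -0.26 (adjusted p = 0.201) in place of a rise. Over the genes of the lists and the naming pool, median centring and quantile normalization moved the change by a median of -0.029 and 0.001. Of 2767 genes with several tested probe sets, 1634 were called by the brightest, 1489 of them with all probe sets on 1 side and 25 with a probe set called the other way.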
